A study of Homo sapiens with 10 samples.

Results

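The SOX genes encode transcription factors, and 10 of them were sought by symbol in an RNA-seq time course of human embryonic stem cells (hESCs) on their way to hepatocyte-like cells. Of these, 8 were found among the 12125 genes of the table, namely SOX2, SOX4, SOX11, SOX12, SOX13, SOX15, SOX17 and SOX18. SOX7 and SOX9 were not analysed here. The table also lists SOX5 and SOX6, which were not among the 10 and were named after their values were seen. They are described beside SOX13, which belongs to the same subgroup. H1, an established hESC line, was differentiated in serum-free medium, and 1 library was sequenced on each day up to day 3, on the odd days from 5 to 13, and on day 21. Day 0 cells were undifferentiated hESCs in mTeSR1. Activin A at 100 ng per ml was given up to day 3, the stage of definitive endoderm (DE), then FGF4 (30 ng per ml) and BMP2 (20 ng per ml) up to day 7, HGF and KGF (20 ng per ml each) up to day 13, and Oncostatin M (OSM, 20 ng per ml) up to day 21, when cells were labelled hepatocyte-like. The label of the day 13 library names OSM, whereas the protocol closes the HGF and KGF step on day 13. All libraries come from 1 line and 1 course, and the cell types in the labels are presumed ones.

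SOX proteins bind DNA through a shared domain, the HMG box, bend it, and act with partner factors on enhancers. They are sorted into subgroups by sequence. SOX2 (SoxB1) keeps pluripotency together with POU5F1 and later marks neural progenitors. SOX17 and SOX18 (SoxF) act in endoderm and in the lining of blood and lymph vessels, SOX4, SOX11 and SOX12 (SoxC) in many embryonic progenitors, SOX5, SOX6 and SOX13 (SoxD) lack an activation domain of their own and modulate other factors, and SOX15 (SoxG) is found in pluripotent cells and muscle progenitors.

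The values are GC-normalized whole numbers with nearly the same distribution in each library. Their totals lay between 2330948 (day 21) and 2362740 (day 9), and the highest value was 18734 in every library, so the sequencing depth cannot be read from them. None of the SOX genes came near that maximum. With 1 library per day no difference has a replicate check and no p-value is given. In place of replicates, the log2(value + 1) difference between days 9 and 11, which share a medium, was used, and its standard deviation over the 500 genes nearest in level is called the spread. It was 0.93 at a value of 10, 0.51 at 50, 0.33 at 100 and 0.29 at 200, and it also holds real change between these days. In bulk RNA, fewer cells of a type and less RNA per cell cannot be told apart.

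The family changed members in the first week. SOX2 was at its highest in hESCs and was almost gone by day 5, SOX17 appeared between days 1 and 2 and was almost gone by day 9, SOX11 had its highest value at day 5, and SOX4 was higher again at day 7. SOX4, SOX12 and SOX13 had values of at least 50 on every day. By day 13, the values of SOX2, SOX15 and SOX17 were 4 or less, and none of the 8 members had its highest value after day 5. SOX15 and SOX18 did not reach a value of 50 on any day. Of the 6 members that did, 4 had their highest value at day 0 (SOX2, SOX4, SOX12 and SOX13), whereas 16.6% of the 10746 genes of the table with a value of at least 50 did so. All 6 were highest between days 0 and 5, as were 56.3% of those genes. Set against each gene's own highest value, as in the heatmap, the early SOX2 column stands beside the SOX17 block of days 2 to 5. The rows of SOX12 and SOX13 were at 40.5% or more on every day, with a low of SOX13 on days 2 and 3.

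**Figure D1:**
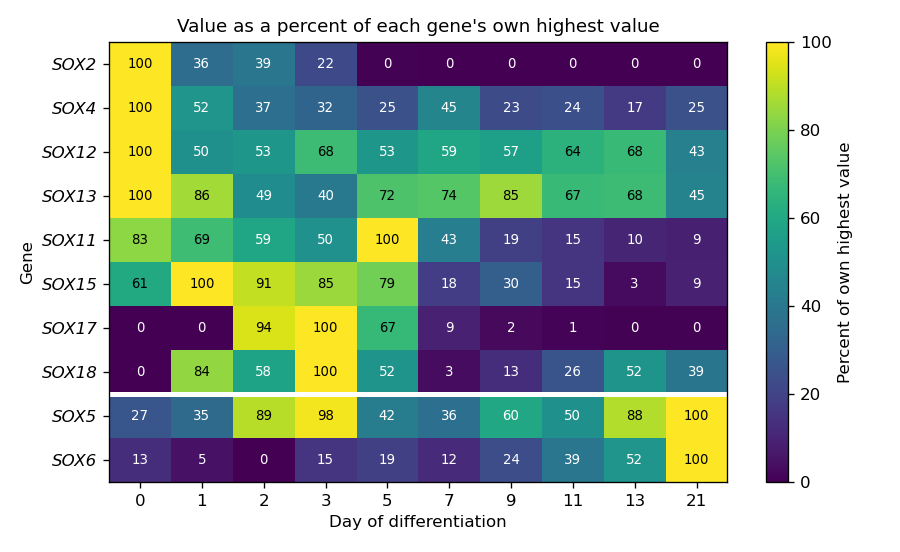
Each cell gives the value of a gene (rows) in the library of a day (columns) as a percent of the gene's own highest value over the 10 libraries, with 1 library per day and colour from 0 to 100 percent. SOX2 is at 100 percent at day 0 and near 0 from day 5, SOX17 is above 60 percent at days 2, 3 and 5, and SOX5 and SOX6, below the white line, are the other SOX genes of the table and are at 100 percent at day 21.

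Members were counted as higher or lower over a step when log2(value + 1) differed by at least 2, that is 4-fold, and the larger value was at least 50, and the same count was made over all genes. From day 0 to day 3, 6 of the 8 members passed the filter on low values, 1 was higher (SOX17) and 1 lower (SOX2), against 3.94% of all genes tested that were higher and 2.16% lower. From day 3 to day 7, 0 members were higher and 2 were lower (SOX2 and SOX17), with 5.63% of genes higher and 4.41% lower. From day 7 to day 13, 5 members passed the filter, 0 were higher and 2 were lower (SOX11 and SOX17), with 3.08% of genes higher and 2.46% lower. The count of SOX11 over this step rested on a difference of -2.03 at the edge of the threshold and was lost with a pseudocount of 5 or with the libraries rescaled. With a larger value of at least 200 asked for, SOX2 was no longer counted from day 3 to day 7, and neither SOX11 nor SOX17 from day 7 to day 13. From day 13 to day 21, 3 members passed the filter and none was counted in either direction, with 2.28% of genes higher and 1.62% lower.

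**Figure D2:**
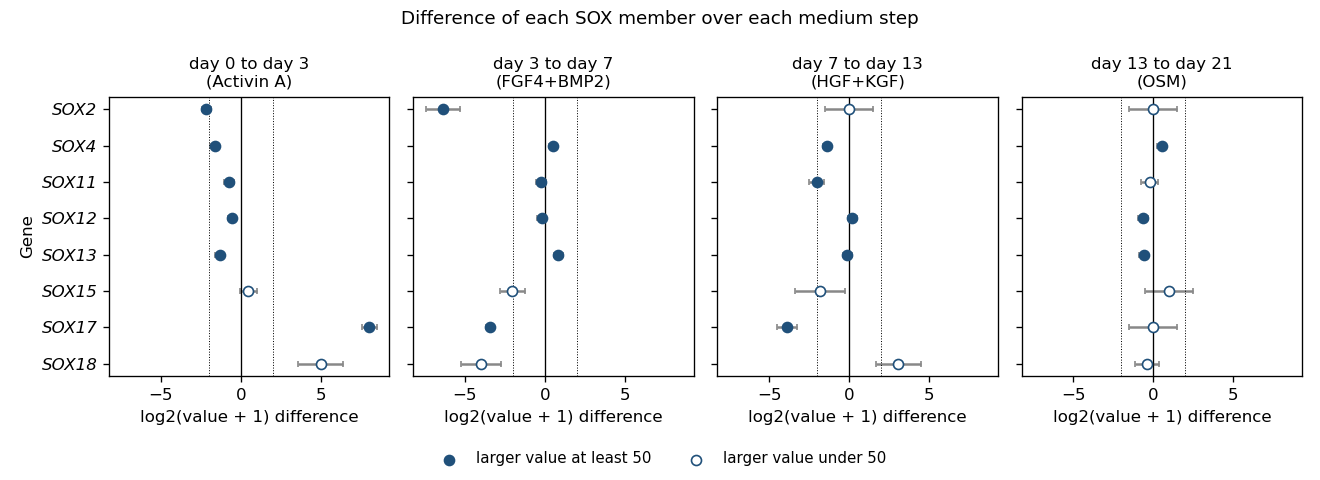
Points give the log2(value + 1) difference of each SOX member (rows) over each step between 2 libraries, later minus earlier, and bars give the spread between days 9 and 11 at the same level, on either side. Filled points have a larger value of at least 50, dotted lines mark a difference of 2, and SOX17 stands at 8.04 in the first panel and at -3.44 and -3.87 in the next 2. The points of SOX18 in the first panel and of SOX2 in the next rest on a value of 0 and depend on the pseudocount.

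SOX2, the partner of POU5F1 in pluripotent cells, is listed as ENSG00000181449 on the plus strand of chromosome 3, (bases 181429714 to 181431102 as the table gives them), and has 1 exon in GENCODE release 29. SOX2 and SOX12, a SoxC gene with 1 exon on chromosome 20 (306207 to 309181, plus strand, ENSG00000177732), both had their highest value at day 0, but SOX2 was lost and SOX12 was kept, so the bases before their starts are shown. They are taken from RefSeq promoters (GRCh38.p14, plus strand), at chr3:181711675-181711923 for SOX2, where the window stops at the first exon base of GENCODE, and at chr20:325302-325551 for SOX12. Capitals mark ACAAAG, a form of the core to which SOX proteins bind, the octamer ATGCAAAT to which POU5F1 binds, and the CCAAT box, each searched on both strands, so that a match may appear as its reverse complement.
SOX2: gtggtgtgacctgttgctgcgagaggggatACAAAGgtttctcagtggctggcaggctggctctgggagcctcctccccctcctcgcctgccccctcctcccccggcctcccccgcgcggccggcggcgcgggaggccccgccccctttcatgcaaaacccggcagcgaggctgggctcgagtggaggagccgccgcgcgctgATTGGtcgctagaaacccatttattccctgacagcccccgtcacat
SOX12: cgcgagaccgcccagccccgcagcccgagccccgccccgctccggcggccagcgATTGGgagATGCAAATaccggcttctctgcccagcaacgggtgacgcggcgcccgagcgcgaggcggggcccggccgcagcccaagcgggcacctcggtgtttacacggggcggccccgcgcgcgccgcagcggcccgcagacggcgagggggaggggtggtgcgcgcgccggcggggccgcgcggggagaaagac

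The SOX2 window held 1 match to the SOX core and 1 to the CCAAT box, and the SOX12 window 1 match to the octamer and 1 to the CCAAT box. Over 27305 promoters of 250 bases, 13.7% held that SOX core, 1.66% the octamer and 33.0% the box. Another SOX core, ACAATG, was searched the same way, was found in 9.45% of promoters and was matched in neither window, nor was the TATA box, found in 11.1%. Both windows were rich in G and C, with 68.8% for SOX2 and 79.2% for SOX12 against a median of 58.0%, and held 20 and 42 CG pairs against a median of 11. Of the 8 members, 4 were matched to a promoter in that set, SOX4 and SOX13 besides these. SOX4 and SOX13 were also kept to day 21, and their promoter entries held no match to the octamer or to either SOX core. Matches to the CCAAT box numbered 4 for SOX4 and 0 for SOX13. They were 48.8% (SOX4) and 60.8% (SOX13) G and C and held 8 CG pairs each. The SOX4 entry, however, held 0 bases before the first exon base of GENCODE. Its letters are thus not upstream of the gene as GENCODE gives it. A match describes these letters and is not a site of binding.

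The GC-normalized values of SOX2 on days 0, 1, 2 and 3 were 371, 132, 146 and 82. On days 5 and 9 they were 2 and 1, and the gene was listed at 0 on days 7, 11, 13 and 21. The values of days 1 and 2 lay within the spread of each other, and both were below day 0 and above day 3 by more than the spread. On the log2 scale the difference from day 0 to day 1 was -1.48 (spread 0.26) and that from day 0 to day 3 was -2.16 (spread 0.29), a value 4.52 times lower. Among successive libraries the largest drop lay between the last in Activin A and the first in FGF4 and BMP2, with a difference of -4.79 (spread 0.69) from day 3 to day 5. Of all genes with a value of at least 300 at day 0, 2 had values of 1 or less on every day from day 7, SOX2 and MT1X, a metallothionein. These cutoffs were modelled on the course of SOX2, so SOX2 met them by design. Genes with lower values at day 0, such as PRDM14 (72) and RP11-132A1.4 (112), were also listed at 0 from day 7.

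By a cutoff of 50% of the highest value, other genes of the pluripotency network were high on later days than SOX2. Some of them rose in the Activin A step, among them LEFTY1, a Nodal antagonist, with values of 174 in hESCs and 4861 on day 3. Of a list of 14 partners and targets 12 were found, and 0 of the 12 had their last day at 50% or more of their own highest value at day 0, as SOX2 did. The last such day was day 1 for 3 genes, day 2 for 1, day 3 for 5, day 5 for 1 and day 7 for 2. The contrast depends on the cutoff. On day 3, POU5F1 (19.7%), DPPA4 (22.5%) and FGF2 (24.2%) were near SOX2 (22.1%), and the other genes found were at 49.1% (NANOG) or more. On days 0, 1 and 3, POU5F1 had values of 4861, 6498 and 1280, and NANOG, another core factor, had 460, 582 and 286. PRDM14, which also guards pluripotency, had 72, 47 and 41 on these days and was listed at 0 from day 7. LIN28A, an RNA-binding protein of stem and progenitor cells, had its highest value at day 5 (4862), and SALL4, a zinc finger factor, likewise (400). All 12 passed the filter on low values between days 0 and 3, where 3 were higher and 2 lower, and the median log2 difference was 0.06 against -0.04 over all genes. Between days 3 and 7, 11 passed it, 0 were higher and 9 lower, and the median over the 12 was -3.44 against -0.03.

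SOX17, a SoxF factor needed for DE in the embryo, is listed as ENSG00000164736 on chromosome 8 and has 2 exons. Its values on days 0 and 1 were 2 and 2, and those on days 2, 3 and 5 were 745, 790 and 530. On days 7, 9 and 11 they were 72, 20 and 8, and on days 13 and 21 they were 4 and 4. Days 2 and 3 did not differ beyond the spread, nor did days 0, 1, 13 and 21, and each of days 5, 7, 9 and 11 was lower than the one before by more than the spread. The difference from day 1 to day 2 was 7.96 (spread 0.46), with both libraries in Activin A. From day 5 to day 7, both in FGF4 and BMP2, it was -2.86 (spread 0.29). Both differences thus lay between libraries of the same medium. The difference from day 0 to day 3, 8.04 with a pseudocount of 1, was 8.56 with 0.1 and 6.83 with 5, and the value at day 0 was near 0.

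SOX2 and SOX17 overlapped in time. At day 2, SOX17 was at 94.3% of its own highest value while SOX2 was at 39.4%, and at day 3 SOX17 was at 100% and SOX2 at 22.1%. At day 5 SOX17 was still at 67.1% and SOX2 at 0.5%. At day 1 SOX2 was already at 35.6% and SOX17 at 0.3%, so SOX2 was already lower in a library where SOX17 was at 2. These are averages over the cells of a culture and do not say whether both genes were on in the same cells. By single-cell qPCR, the paper marks a group of cells with pluripotency genes, SOX2 among them, and DE genes, SOX17 among them, on together. Over days 0 to 3 it also places SOX2 in a cluster with the epithelial marker CDH1 and SOX17 in another with the mesenchymal marker CDH2. At day 3 it reports SOX17 and CDH1 as mutually exclusive.

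SOX17 came after some DE genes and with others. Of 11 DE genes, all found, 4 first reached 50% of their own highest value at day 1, which were EOMES, MIXL1, GSC and KIT, 5 at day 2, as SOX17 did, and 2 at day 3. The shares of all genes that first did so on these days were not counted. On days 0, 1 and 2, EOMES, the T-box factor of the mesendoderm, had values of 7, 1088 and 1435, and MIXL1, a homeobox factor of the primitive streak, had 6, 874 and 1022. FOXA2, a forkhead pioneer factor, had 0, 42 and 200, and GATA6, a zinc finger factor of endoderm, 2, 59 and 576. CXCR4, a chemokine receptor used as a DE marker, followed with 157 at day 2 and 568 at day 3. Afterwards some of these genes were lost before SOX17 and others were kept. GSC, a homeobox factor, was listed at 0 by day 5 and MIXL1 was at 24, whereas GATA4 had its highest value at day 5 (530) and FOXA2 at day 7 (343), where SOX17 was at 9.1% of its own highest value. All 11 passed the filter between days 0 and 3, where 10 were higher and 0 lower with a median log2 difference of 6.72, and between days 3 and 7, where 0 were higher and 6 lower with a median of -3.25. Over all genes these medians were -0.04 and -0.03.

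SOX18, a SoxF factor of vessel and lymphatic development, is listed as ENSG00000203883 on the minus strand of chromosome 20 (62679076 to 62680994). It was listed at 0 on day 0 and had values of 26, 18, 31 and 16 on days 1, 2, 3 and 5. On days 7, 9, 11, 13 and 21 they were 1, 4, 8, 16 and 12. The lowest values were thus those of days 0 and 7. The log2 difference from day 3 to day 7 was -4.00 (spread 1.24), that from day 5 to day 7 was -3.09 (spread 1.42) and that from day 7 to day 13 was 3.09 (spread 1.42), all beyond the spread but between values under 50 and so not counted above. In the order of its values, however, 0 of 9 gaps lay beyond the spread. Its transcript is 69.4% G and C, more than that of 99.7% of the genes of the table with a known transcript, and the part of the GC normalization in its values was not tested. The 8 endothelial and haemogenic genes found, of 15 listed, did not share 1 course. Between days 7 and 13, 7 passed the filter, 2 were higher and 0 lower, and the median over the 8 was 1.58 against -0.04 over all genes. TEK, a receptor of endothelial cells, had values of 38 and 889 on these days, and CDH5, the endothelial cadherin, had 34 and 152. VWF, a clotting protein of endothelium, had its highest value on day 3 as SOX17 did, with 3, 309, 299 and 31 on days 0, 3, 5 and 7.

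Among the SoxC genes, SOX4 and SOX11 were present in hESCs, were lower at the end of the Activin A step and were higher again in FGF4 and BMP2, SOX11 in the day 5 library and SOX4 in that of day 7. Values of different genes are not scaled for length, so their levels are not compared with each other. SOX4 (ENSG00000124766, chromosome 6, 21593972 to 21598847, plus strand) had values of 1000, 523, 367, 324 and 247 on days 0, 1, 2, 3 and 5. The value of day 7 was 454, a difference of 0.88 (spread 0.25) from day 5, and that of day 9 was 233, a difference of -0.96 (spread 0.25). On days 11, 13 and 21 the values were 245, 171 and 249. SOX4 was thus lower by day 5 and was then kept, and days 5, 9, 11 and 21 followed each other in its order within the spread. The value of day 21 was 4.02 times lower than that of day 0.

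SOX11 (ENSG00000176887, chromosome 2, 5832799 to 5841516, plus strand), known from embryonic neural and mesenchymal progenitors, had values of 211, 175, 150 and 128 on days 0, 1, 2 and 3. Its highest value, 254, was that of day 5, and those of days 7, 9, 11, 13 and 21 were 109, 48, 38, 26 and 22. The difference from day 3 to day 5 was 0.98 (spread 0.28) and that from day 5 to day 7 was -1.21 (spread 0.29), so that SOX11 was lower again in the library where SOX4 was higher. From day 5 to day 21 the difference was -3.47 (spread 0.34). SOX11 had at least 50% of its highest value on days 0, 1, 2, 3 and 5, and SOX4 on days 0 and 1. In GENCODE the exons of SOX4 overlap those of an antisense RNA and those of SOX11 an RNA on the same strand, and reads of such pairs may be shared. Of 10 neuronal genes in which SOX2, SOX4 and SOX11 are active elsewhere, 4 were found, and they did not move together. Over the 4 steps in order, 1, 0, 1 and 1 were higher and 0, 1, 0 and 1 lower, of 3, 2, 2 and 3 that passed the filter, and the medians over the 4 genes were 0.31, -1.12, -0.12 and 2.02, against -0.04, -0.03, -0.04 and -0.10 over all genes.

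SOX12 had values of 286 on day 0 and 144 on day 1, a difference of -0.98 (spread 0.29). On days 2, 3, 5 and 7 they were 151, 196, 151 and 169, and on days 9, 11, 13 and 21 they were 162, 184, 194 and 124. The values after day 0 lay between 124 and 196, and the log2 difference between days 13 and 21 was -0.64 (spread 0.29). In the order of its values the gap from day 0 to day 3, the next highest, was the single one of 9 gaps beyond the spread. SOX12 and SOX13 had the narrowest ranges of the 8 members, 1.2 and 1.30 on the log2 scale, against 8.54 for SOX2 and 8.04 for SOX17.

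**Figure D3:**
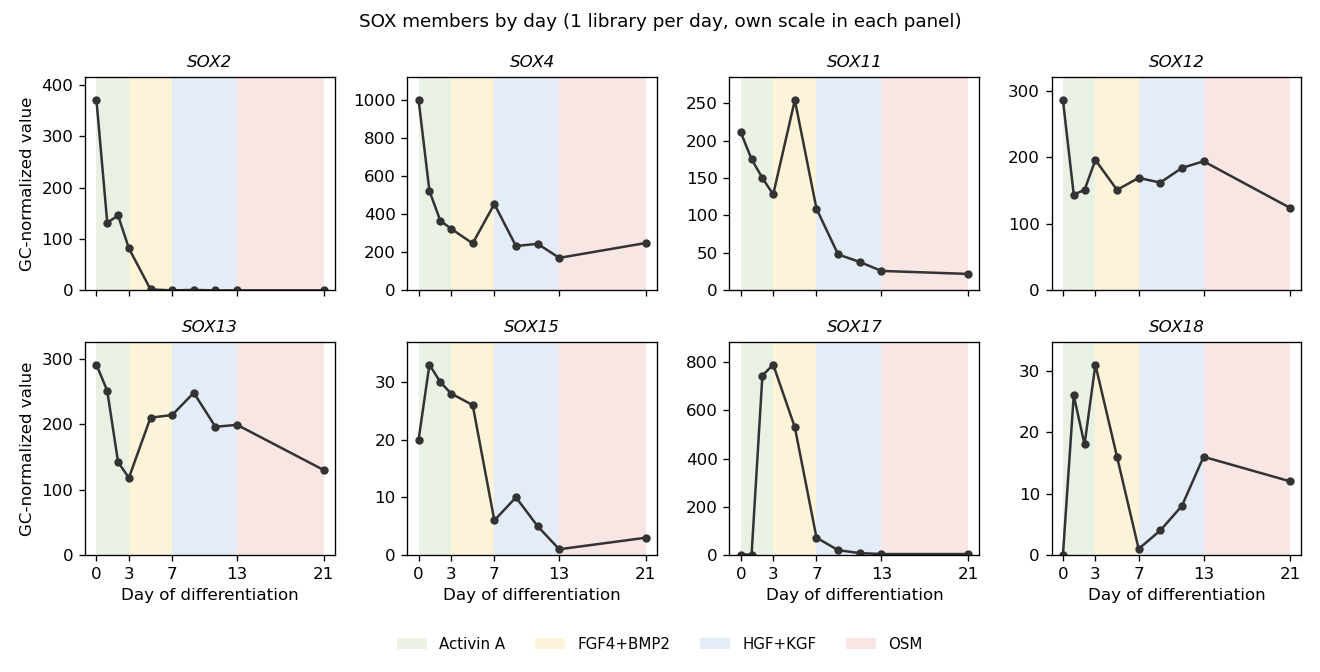
Points give the GC-normalized value (vertical axis, a scale of its own in each panel, starting at 0) of each SOX member in the library of each day (horizontal axis), and shading marks the medium by the protocol. SOX2 is at 371 at day 0, SOX17 at 790 at day 3, SOX11 at 254 at day 5, and SOX15 and SOX18 stay at 33 or less.

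SOX13 (ENSG00000143842, chromosome 1, 204042243 to 204088987, plus strand), the SoxD gene among the 8, took a course with a low at the DE stage. Its values on days 0, 1, 2 and 3 were 291, 251, 142 and 118. They were 210, 214 and 248 on days 5, 7 and 9, and 196, 199 and 130 on days 11, 13 and 21. The difference from day 0 to day 3 was -1.30 (spread 0.28) and that from day 3 to day 5 was 0.83 (spread 0.29). Days 2, 3 and 21 formed a low group, set off from the other days by the 1 gap beyond the spread among 9. On days 2 and 3 SOX13 was low and SOX17 high, but on day 5 SOX13 was at 210 with SOX17 still at 530, and on day 21 SOX13 was low without SOX17.

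The other SoxD genes of the table had a different course from that of SOX13. SOX5 (ENSG00000134532, chromosome 12) had values of 28, 36, 93 and 102 on days 0, 1, 2 and 3. They were 44 and 38 on days 5 and 7, and 62, 52, 92 and 104 on days 9, 11, 13 and 21. SOX5 was thus high on days 2, 3 and 21, where SOX13 was low, and also on day 13. Their correlation over the 10 libraries was -0.85, the lowest of any pair of the SOX genes found. SOX6 (ENSG00000110693, chromosome 11) had values of 22 and 8 on days 0 and 1 and was listed at 0 on day 2. On days 3, 5 and 7 they were 26, 32 and 20, and on days 9, 11, 13 and 21 they were 40, 66, 88 and 169. Its difference from day 7 to day 13 was 2.08 (spread 0.43) and that from day 13 to day 21 was 0.93 (spread 0.30). SOX5 and SOX6 were named after their values were seen to differ from those of the members, all of which had their highest value by day 5. Exons of SOX6 overlap those of C11orf58 on the other strand.

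SOX15 (ENSG00000129194, chromosome 17, 7491496 to 7493390, minus strand) was low throughout. Its values on days 0, 1, 2, 3 and 5 were 20, 33, 30, 28 and 26, and those on days 7, 9, 11, 13 and 21 were 6, 10, 5, 1 and 3. In the order of its values, the gap from day 0 to day 9 was the single one of 9 beyond the spread. It parted the first 5 libraries from the last 5, and the share of all genes that do so was not counted. From day 5 to day 7 the difference was -1.95 (spread 0.79). Exons of SOX15 overlap those of MPDU1 on the other strand, and without counting by strand, which is not given in the sources used here, reads of both cannot be told apart.

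For the members whose log2 value ranged over at least 2, the genes with the most similar course were named by Pearson's r of log2(value + 1) over the 10 libraries, among 4323 genes with the same range and a value of at least 50. For SOX2 they were RP11-132A1.4 (r = 0.995), PRDM14 (0.992) and CTSC, a lysosomal protease (0.992). CTSC kept a value of 118 at day 21, so that likeness in this measure is one of shape. For SOX17 they were TMEM150C (0.972), the adaptor SHB (0.955) and HAS2, a hyaluronan synthase (0.950), which was highest at day 5 (1488). For SOX11 they were FAM169A (0.982), UNC5D, a netrin receptor (0.980), and DPYSL4 (0.978), and for SOX4 they were GDA (0.938), ASUN (0.936) and YBX2 (0.932). SOX15 was most like LIMD2 (0.969), HERC5 (0.963) and TRMT6 (0.958), and SOX18 less closely like KIAA1161 (0.873), TAGLN (0.835) and GCNT1 (0.823). Between members, r was highest for SOX11 with SOX15 (0.88) and for SOX2 with SOX15 (0.79). With Spearman's correlation of the values, 0 of these 3 genes were named again for SOX2, SOX4, SOX11 and SOX17, 1 for SOX15 and 2 for SOX18.

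Markers of the labelled stages were present, and those of early stages were not all gone at later ones. The 5 pluripotency markers summed to 8690 in hESCs, 10253 on day 1, 3368 on day 7 and 88 on day 21. Of the day 7 sum, LIN28A made 2970 and SALL4 278, whereas POU5F1 was at 88, NANOG at 32 and PRDM14 at 0. The 5 DE markers summed to 20 in hESCs and 2947 on day 3. AFP, the fetal albumin of hepatoblasts, was at 28 in hESCs and at the highest value of the table, 18734, from day 7 to day 21. The 4 hepatocyte markers found, of 5, summed to 11 in hESCs and 45762 on day 21, when TTR and SERPINA1 were both at that maximum, so that their sum is limited by it. Markers of other cells moved over the days in which SOX11 and SOX17 were lower and SOX6 was higher. The 5 stromal markers summed to 3946 at day 7 and 18321 at day 13, the 3 endothelial markers found, of 5, to 88 and 1101, and the 3 blood markers found, of 5, to 9 and 3018, of which the embryonic globin HBE1 made 3 and 2968, with the leukocyte gene PTPRC listed at 0 on both days. Their part in the values of the SOX genes was not tested.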

How the data were processed

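RNA of H1 cells was sequenced on 10 days with 1 library per day. The authors aligned the reads to the transcriptome of Ensembl release 76, for which their methods name mm10 although the genes are human, using Bowtie2 2.2.0 and RSEM 1.2.17, normalized them for GC content with EDASeq 2.0.0, and deposited 1 table of scores. The submitters' processing notes name hg19 and mm10 without a role, so intervals are given as the table lists them. The deposited scores are whole numbers with nearly the same distribution in each library and are not read counts, so no count model was used. The paper names a MiSeq and gives an average depth over the samples, but the depth of each library is unknown.

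Computations used Python 3.11.15, numpy 2.4.6, pandas 2.3.3, scipy 1.17.1 and matplotlib 3.10.9. Members were matched by symbol and identifier. Differences are of log2(value + 1), a scale that understates changes of low genes. A gene was counted over a step if 1 of its values reached 50 and they differed by 2 or more on this scale. The rule was tested on simulated data. Exons, overlaps and transcript GC content came from GENCODE release 29 (GRCh38), with a value for 11961 of the 12125 genes, and promoters from RefSeq (GRCh38.p14). Genes named are the members, other SOX rows, the 3 genes most like a member, and genes of fixed lists. The members and lists were chosen with earlier results of these data known. Alternatives were other pseudocounts, filters, thresholds and scaling.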

Additional observations from a re-analysis of the deposited data

How the results depend on the processing

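No paired analysis was possible because each day has 1 library. Counts of SOX members over a step were recomputed with pseudocounts of 0.1 and 5, without a filter on low values or with a larger value of at least 200, with a log2 difference of at least 1, and with libraries scaled by the median of ratios. Without the filter, the members higher at day 3 than at day 0 were 2 (SOX17 and SOX18), those lower at day 7 than at day 3 were 4 (SOX2, SOX15, SOX17 and SOX18), and those higher at day 13 than at day 7 were 1 (SOX18), all through values of 31 or less beside SOX2 and SOX17. With a log2 difference of at least 1, the members lower at day 3 than at day 0 were 3 (SOX2, SOX4 and SOX13). With a larger value of at least 200, those lower at day 7 than at day 3 were 1 (SOX17), and those lower at day 13 than at day 7 were 0. The latter count was 1 (SOX17) with a pseudocount of 5 and with scaled libraries. Other counts were within 1.5 times the main ones. Of 96 recomputed log2 differences, 0 changed sign and 8 moved by more than the spread, all of them with another pseudocount and a value of 4 or less in 1 of the libraries. Scaling shifted all genes by a median of at most 0.09, and the day of the highest value of each member was the same. The paper gives the depth only as an average over the samples, and that of each library is unknown. How far values under 50 vary by sampling was not tested.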

Other observations

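Genes that SOX9 is known to drive or accompany were present over the course, although SOX9 was not analysed here. Of 15 cartilage gene symbols 12 were found, SOX5 and SOX6 among them, and they did not move as a group. The list held LECT1 also under its other symbol, CNMD, which was not found. Between days 0 and 3, 7 passed the filter on low values, 3 were higher and 1 was lower by at least 4-fold. Of all genes tested, 3.94% were higher and 2.16% lower. Between days 7 and 13, 10 passed it, 1 was higher and 3 were lower, with 3.08% of all genes tested higher and 2.46% lower. COL9A2, a chain of collagen IX, had values of 14, 322, 1638 and 13 on days 0, 3, 5 and 9, with its highest on the same day as SOX11. COL2A1, the main collagen of cartilage, had 62, 544, 822 and 1156 on these days. COL11A1, a chain of collagen XI, was at 124 in hESCs and was highest on day 21 (2438), whereas LECT1, a cartilage glycoprotein, was at 194 in hESCs and was listed at 0 on day 5.

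Of 12 biliary and duct genes 9 were found. Between days 3 and 7, 8 passed the filter, 4 were higher and 0 lower, and the median log2 difference over the 9 was 2.04 against -0.03 over all genes. On days 3, 7 and 21, KRT19, a duct keratin, had values of 936, 3861 and 1157, and CFTR, a chloride channel of duct cells, had 11, 368 and 519. SPP1, a secreted protein of ducts and of macrophages, had 26 at day 13 and 1896 at day 21, when the macrophage marker CD68 had 259 and PTPRC had 65. Whether the same cells carried these genes was not tested.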
